A study of Mus musculus with 6 samples.

Results

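The Wnt genes described here are the 4 DNA-binding factors of the Tcf/Lef family, Tcf7l1, Tcf7l2, Tcf7 and Lef1, and 4 genes known as targets of the pathway, Axin2, Sp5, Nkd1 and Lgr5. They were chosen by name, as 8 of the 20325 genes that each deposited table lists. Messenger RNA levels were measured in neural stem cells of the mouse, the precursors of neurons and glia, on day 7 of reprogramming toward pluripotency. The cells were isolated at postnatal day 4 from mice of mixed 129/Black 6 strain, which were homozygous at ColA1 for the doxycycline-inducible Stemcca cassette (Oct4, Sox2, c-Myc and Klf4) and heterozygous at Rosa26 for the rtTA activator. Both sorted populations therefore carried the same alleles and had received doxycycline. After fixation and antibody staining, cells positive for the pluripotency factor Nanog were divided into Nanog+E-cadherin+ cells (3 libraries) and Nanog+E-cadherin- cells (3 libraries). The comparison asks how Nanog-positive cells that had gained the epithelial adhesion protein E-cadherin differed from those that had not.

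In the canonical Wnt pathway, secreted Wnt proteins bind Frizzled and Lrp receptors and stop a cytoplasmic complex of Axin, Apc and the kinase Gsk3 from marking β-catenin for destruction. Stabilised β-catenin enters the nucleus and binds Tcf/Lef factors, which otherwise hold target genes down with Tle co-repressors. In mouse embryonic stem cells Tcf7l1 is known mainly as a repressor that limits pluripotency genes such as Esrrb, while Tcf7 and Lef1 more often act as activators. Several targets feed back on the pathway, among them Axin2, a scaffold of the destruction complex, and Nkd1, an antagonist that binds Dishevelled.

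Total expected counts ran from 8851110 to 39630916 per library, so a level of 1 CPM (counts scaled to library size) stood for between 8.85 and 39.6 reads. Cdh1 mRNA, which encodes E-cadherin, followed the sort at 129 ± 21.3 CPM in Nanog+E-cadherin+ and 17.4 ± 2.51 CPM in Nanog+E-cadherin- cells (SD, n = 3 each). Neural stem cell markers were present in all libraries, with a summed level of 8 genes between 507 and 1234 TPM, a relative level that takes transcript length into account. The 8 include Sox2, a factor of the cassette, so the sum alone does not show neural identity. Summed fibroblast and pericyte markers (6 genes) were above it in the libraries numbered 2 and 3, at 1806 and 957 TPM in Nanog+E-cadherin+ and 1266 and 1447 TPM in Nanog+E-cadherin- cells. Nanog+E-cadherin- replicates 2 and 3 stood apart in the summed counts of 1446 listed olfactory and vomeronasal receptor genes. The sums were 1886 and 1215 CPM there and between 31.9 and 155 CPM in the other 4 libraries. In number of these genes above 0 they did not stand apart, with 249 and 113. Nanog+E-cadherin+ replicates 1, 2 and 3 had 37, 296 and 168, and Nanog+E-cadherin- replicate 1 had 40. Libraries with the same replicate number varied together (processing notes), so ratios within equal numbers are given beside the group values. Whether replicates were separate cultures or mice is not in the labels, and the p-values then cover no more than the spread of these libraries, which may be technical. Values of a group are listed in the order of replicates 1, 2 and 3. In these bulk samples, fewer cells of a type and less RNA per cell cannot be told apart.

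The core site that Tcf/Lef factors bind reads CTTTGA or CTTTGT, and the stretches before the start sites of 2 of the target genes are shown because they differ in it. The letters CTTTGA and CTTTGT were searched on both strands, and matches are in capitals. On the opposite strand they appear as TCAAAG and ACAAAG. The sequences are the 250 bases before the RefSeq start site in GRCm38.p6, at chr2:70474673-70474922 on the plus strand for Sp5 and chr11:108920099-108920348 on the plus strand for Axin2.
Sp5: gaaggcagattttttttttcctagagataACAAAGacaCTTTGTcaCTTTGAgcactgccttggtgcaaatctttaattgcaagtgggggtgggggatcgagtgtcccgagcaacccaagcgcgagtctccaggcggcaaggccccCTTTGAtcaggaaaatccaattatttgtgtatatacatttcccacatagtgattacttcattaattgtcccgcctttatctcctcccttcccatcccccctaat
Axin2: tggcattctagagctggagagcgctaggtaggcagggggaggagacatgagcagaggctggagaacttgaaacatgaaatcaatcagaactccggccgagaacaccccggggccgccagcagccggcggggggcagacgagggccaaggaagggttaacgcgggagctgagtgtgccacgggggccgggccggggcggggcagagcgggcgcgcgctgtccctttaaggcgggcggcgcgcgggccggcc
The Sp5 window held 4 matches, beginning 221, 212, 204 and 104 bases before the start site, and none overlapped another. The Axin2 window held none. Of 32851 RefSeq windows of this length, 27.6% held at least 1 match and 0.0944% held 4 or more. For 7 of the 8 genes 12 windows were found, and 4 of the 12 held a match, 1 each of Sp5, Tcf7l1, Tcf7l2 and Lef1, a share near that of all windows. These matches describe letters only, and binding was not measured.

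Tcf7l1 was the most abundant of the 8 genes in every library, and its level did not pass the test between the populations. Per transcript length, it stood between 64.9 and 181 TPM, above every value of Tcf7, which ran from 15.1 to 50.9 TPM. Tcf7l2 ran from 12.8 to 44.7 TPM and was below Tcf7 in 5 of 6 libraries, but their ranges overlapped. Axin2 (2.91 to 21.4 TPM) and Nkd1 (1.49 to 14.1 TPM) followed, with overlapping ranges and Axin2 ahead in 4 of 6 libraries. Lef1 (0 to 1.88 TPM), Sp5 (0 to 1.59 TPM) and Lgr5 (0.02 to 1.16 TPM) were low throughout and did not separate in this order. TPM sets genes side by side, and CPM scaled by TMM factors is used from here on to compare single genes of this list between libraries. Family sums, marker sums and many levels of the role lists are given in TPM, whose scale differed between libraries. For those, the fits on counts, where given, carry the comparison of groups.

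Tcf7l1, the factor known for repression in embryonic stem cells, measured 149, 179.9 and 255 CPM in Nanog+E-cadherin+ cells. It measured 128, 143 and 169 CPM in Nanog+E-cadherin- cells. The Nanog+E-cadherin+ library was the higher in all 3 equal-numbered pairs, although the groups overlapped, because Nanog+E-cadherin+ replicate 1 lay below Nanog+E-cadherin- replicate 3. Group means were 195 ± 54.7 and 147 ± 20.7 CPM (SD, n = 3 each). The log2 fold change (Nanog+E-cadherin+ over Nanog+E-cadherin- throughout) was 0.41 ± 0.26 (SE), with a 95% interval from -0.21 to 1.02. With the replicate number as a block it was 0.38 ± 0.14 (SE), with an interval from 0.05 to 0.71. The adjusted p of edgeR's quasi-likelihood test was 0.9999 with group only and 0.398 with the block. Its value was above 0 in all 22 fits made, between 0.20 and 0.60.

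Tcf7l2, a Tcf factor with roles in gut epithelium and in oligodendrocyte maturation, had no common direction over the pairs. It measured 36.2, 31.8 and 44.4 CPM in Nanog+E-cadherin+ cells and 44.4, 24.0 and 68.8 CPM in Nanog+E-cadherin- cells. The highest and the lowest value both came from Nanog+E-cadherin- cells, so that group spanned the other. The log2 fold change was -0.29 ± 0.39 (SE) with an interval from -1.19 to 0.62, and leaving out Nanog+E-cadherin- replicate 3 gave 0.13. Summed markers of the oligodendrocyte lineage (8 genes) ran from 39.7 to 125 TPM in Nanog+E-cadherin+ and from 37.1 to 163 TPM in Nanog+E-cadherin- libraries, and their part in the Tcf7l2 level was not tested.

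Tcf7, which often acts as an activator on Wnt targets, was nearly level in 5 libraries and high in the sixth. It measured 25.6, 31.1 and 30.4 CPM in Nanog+E-cadherin+ cells and 25.5, 23.3 and 49.8 CPM in Nanog+E-cadherin- cells. The high value was that of Nanog+E-cadherin- replicate 3, which was also highest for Tcf7l2. The log2 fold change was -0.18 ± 0.34 (SE) with an interval from -0.98 to 0.62, and it was 0.25 without that library.

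Lef1, the factor most often linked with active Wnt signalling in development, was near the limit of detection. It drew expected counts of 38, 13 and 10 in Nanog+E-cadherin+ cells and 49, 25 and 0 in Nanog+E-cadherin- cells. On the CPM scale these were 2.09, 0.982 and 0.50 against 1.38, 2.16 and 0. The 0 in Nanog+E-cadherin- replicate 3 allows a level of up to 0.315 CPM (3 counts). The groups overlapped widely, and the log2 fold change of 0.0007 had an interval from -3.39 to 3.40, so a difference of several fold in either direction was not detectable in these libraries. Libraries of 1 group differed beyond counting error, with exact 95% Poisson intervals of 1.40 to 3.19 CPM in Nanog+E-cadherin- replicate 2 and 0 to 0.387 CPM in replicate 3. Of 6 endothelial and 6 lymphocyte markers, cell types known for Lef1 expression, the endothelial sum ran from 4.08 to 25.7 TPM in Nanog+E-cadherin+ and from 2.71 to 18.1 TPM in Nanog+E-cadherin- libraries. The lymphocyte sum ran from 0.88 to 1.70 TPM and from 0.81 to 6.54 TPM, highest in Nanog+E-cadherin- replicates 2 and 3. In some library 3 of the endothelial and 4 of the lymphocyte markers were at 0, and the part of these cell types in the Lef1 level was not tested.

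**Figure D1:**
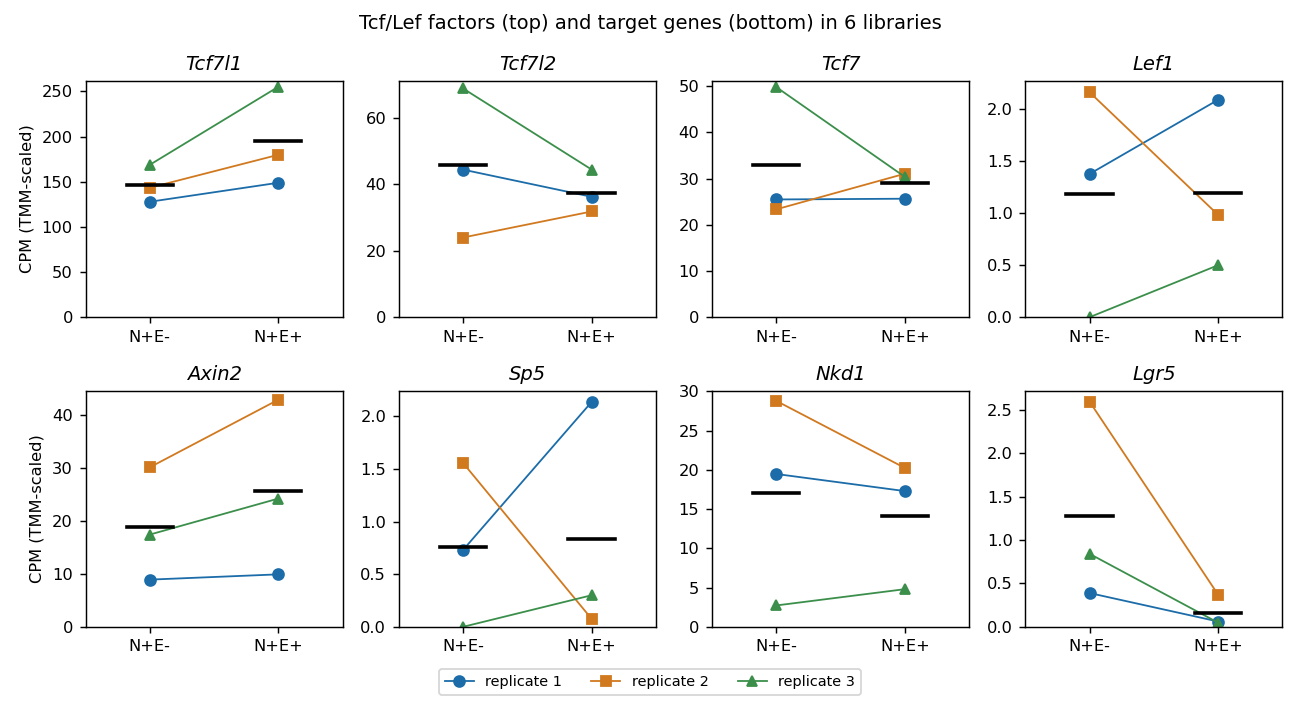
Level of each gene in CPM (y axis, TMM-scaled, each panel on its own scale from 0) in Nanog+E-cadherin- (N+E-) and Nanog+E-cadherin+ (N+E+) libraries. Lines join libraries of equal replicate number and black bars are group means. Tcf7l1 and Axin2 go up in each of the 3 pairs and Lgr5 goes down in each. Of all genes tested, 19.0% go up in each pair and 17.3% go down in each.

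As a family, the Tcf/Lef factors were made up mostly of Tcf7l1 in every library. Their summed level was 99.6, 188 and 231 TPM in Nanog+E-cadherin+ cells and 98.5, 149 and 235 TPM in Nanog+E-cadherin- cells. On the TPM scale it was nearly equal in the pairs numbered 1 and 3. Tcf7l1 gave 70.9%, 74.2% and 78.4% of that sum in Nanog+E-cadherin+ replicates and 65.9%, 74.4% and 59.3% in Nanog+E-cadherin- replicates. Mean shares were 74.5% ± 3.79 against 66.6% ± 7.58 (SD, n = 3 each), a difference of 7.95 percentage points. An exact permutation test, two-sided, returned p = 0.3 (0.533 after Benjamini-Hochberg adjustment over the 4 factors), where 0.1 is the smallest p that 3 against 3 allows. Without Nanog+E-cadherin- replicate 3, which had the lowest share, the difference was 4.32 points. Tcf7l2 made up 10.7% ± 1.91 against 15.05% ± 5.15 (p = 0.4 in the exact permutation test) and Tcf7 14.2% ± 2.32 against 17.7% ± 3.50 (p = 0.3 in the exact permutation test). Lef1 never exceeded 1.26% of the family.

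**Figure D2:**
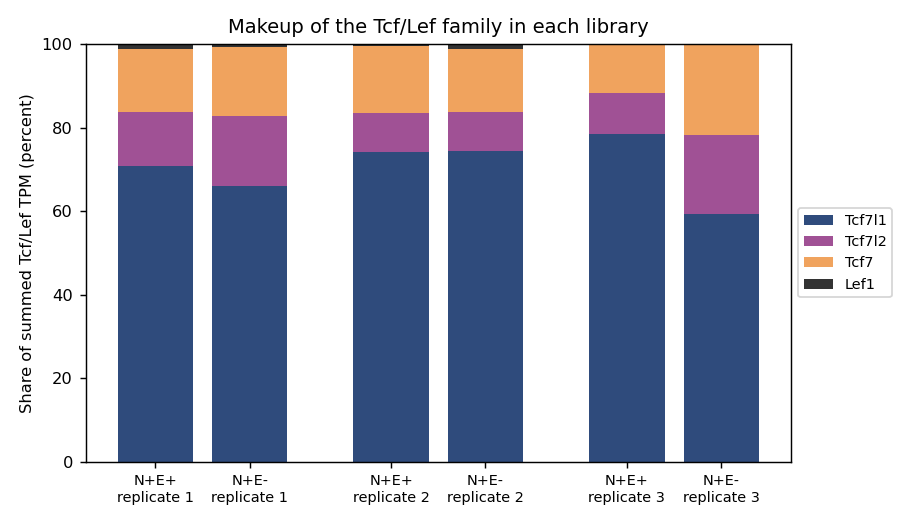
Percentage of the summed Tcf/Lef TPM (y axis) contributed by each of the 4 factors in each library (x axis, pairs of equal replicate number side by side). Tcf7l1 fills between 59.3% and 78.4% of every bar, and Lef1 is at most a thin band on top.

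Axin2, the feedback scaffold most often read as a reporter of Wnt activity, differed far more between replicate numbers than between the sorted populations. It measured 9.90, 42.9 and 24.2 CPM in Nanog+E-cadherin+ cells and 8.91, 30.1 and 17.4 CPM in Nanog+E-cadherin- cells. Both libraries numbered 1 were low, both numbered 2 were high, and within each pair the Nanog+E-cadherin+ library was the higher. The log2 ratios within pairs were 0.15, 0.50 and 0.46. The fitted log2 fold change was 0.45 ± 0.61 (SE) with group only (interval from -0.98 to 1.88). With the block it was 0.38 ± 0.23 (SE), with an interval from -0.14 to 0.90 and an adjusted p of 0.594 in edgeR's test. Without Nanog+E-cadherin+ replicate 2, the library with the highest level, the group-only value was -0.13.

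Nkd1, the Dishevelled-binding antagonist, also separated by replicate number, but in another order. It measured 17.3, 20.2 and 4.80 CPM in Nanog+E-cadherin+ cells and 19.5, 28.8 and 2.73 CPM in Nanog+E-cadherin- cells. The libraries numbered 3 held the lowest values, where Axin2 was at an intermediate level. The log2 ratios within pairs were -0.17, -0.50 and 0.72, so they had no common direction. The log2 fold change was -0.27 ± 0.83 with group only and -0.009 ± 0.333 with the block (SE), whose interval ran from -0.77 to 0.75.

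In the edgeR fit with group and replicate number, a test among the 3 numbers, chosen after the data were seen, passed for Axin2 (adjusted p = 0.00556) and Nkd1 (adjusted p = 0.00642). The same test passed for 22.2% of all 13460 genes tested, so 2 of the 7 Wnt genes tested is close to the background. Mean Axin2 over both libraries of a number was 9.40, 36.5 and 20.8 CPM for numbers 1 to 3, a 3.88-fold range, while the largest fold within a pair was 1.42. For Nkd1 the means were 18.4, 24.5 and 3.76 CPM, a 6.52-fold range against at most 1.76-fold within a pair. Tcf7l1 (adjusted p = 0.0846), Tcf7l2 (0.0849), Tcf7 (0.271), Lef1 (0.386) and Sp5 (0.485) did not pass in this edgeR test. Summed markers of fibroblasts and pericytes (6 genes, among them collagen and Acta2) also moved with the number, from 112 and 133 TPM in the libraries numbered 1 to between 957 and 1806 TPM in the other 4. Astrocyte markers (6 genes) went from 108 and 72.0 TPM to between 436 and 834 TPM. Endothelial markers (6 genes) went from 4.08 and 2.71 TPM to between 16.8 and 25.7 TPM. Oligodendrocyte lineage markers (8 genes) went from 39.7 and 37.1 TPM to between 92.7 and 163 TPM. Neural stem cell markers (8 genes) went from 507 and 776 TPM to between 899 and 1234 TPM. Neuron markers (8 genes) fell, from 630 and 898 TPM to between 169 and 545 TPM. All these sums are in TPM, whose scale also moved with the number. Mean Tcf7l1 was 138 CPM and 67.8 TPM over the libraries numbered 1, and 162 CPM and 125 TPM over those numbered 2. A rise as small as that of the neural stem cell markers can therefore be a matter of scale. The part of any of these cell types in the Axin2 and Nkd1 levels was not tested.

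**Figure D3:**
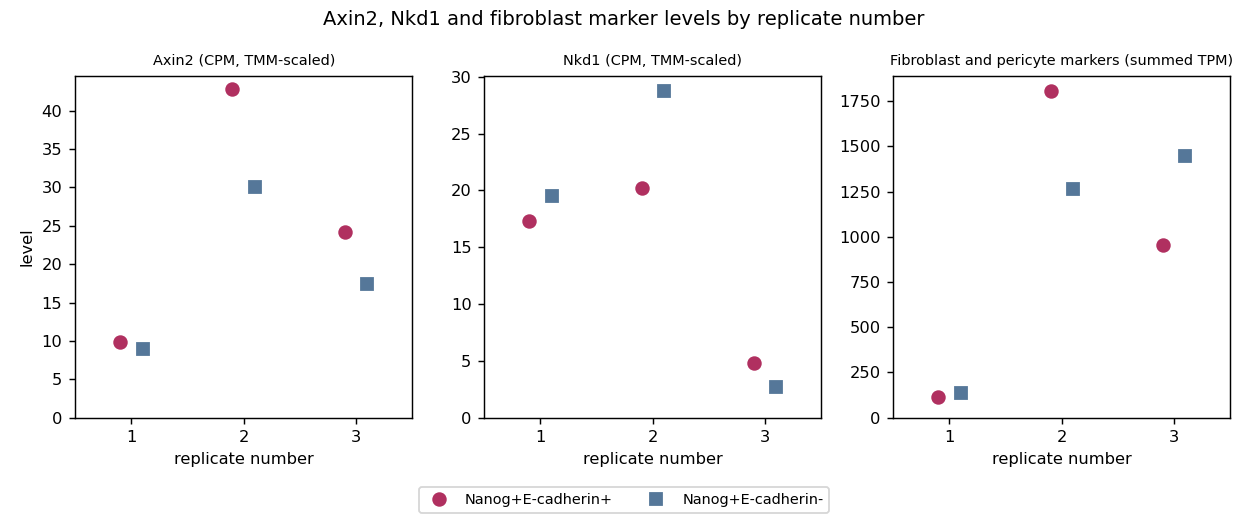
Axin2 and Nkd1 in CPM and the summed TPM of 6 fibroblast and pericyte markers (y axes) against replicate number (x axis), with circles for Nanog+E-cadherin+ and squares for Nanog+E-cadherin- libraries. In both populations Axin2 is highest at number 2 and Nkd1 lowest at number 3.

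Sp5, a zinc-finger factor induced by Wnt and the gene whose start region held 4 core matches, was detected at low counts. It drew expected counts of 38.8, 1 and 6 in Nanog+E-cadherin+ cells and 26.0, 18 and 0 in Nanog+E-cadherin- cells. These correspond to 2.14, 0.0756 and 0.300 CPM against 0.730, 1.56 and 0 CPM. The library with the most was Nanog+E-cadherin+ replicate 1, where the exact 95% Poisson interval of 39 rounded counts was 1.52 to 2.93 CPM, counting error only. The order within pairs changed from number to number, and the log2 fold change of 0.14 had an interval from -3.48 to 3.76. Nanog+E-cadherin- replicate 2, where Sp5 and Lef1 were highest among Nanog+E-cadherin- cells, was a library with high olfactory receptor counts. Nanog+E-cadherin- replicate 3, also high in these receptors, had 0 counts of both genes. In Nanog+E-cadherin+ replicate 1, the highest for Sp5, the receptors summed to 31.9 CPM. The part of that background was not tested.

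Lgr5, the R-spondin receptor that marks intestinal stem cells, was too low to enter the test. It drew expected counts of 1.11, 4.89 and 0.95 in Nanog+E-cadherin+ cells and 13.8, 30.0 and 8.02 in Nanog+E-cadherin- cells. In CPM these were 0.0611, 0.370 and 0.0475 against 0.389, 2.59 and 0.841. Every Nanog+E-cadherin- library lay above every Nanog+E-cadherin+ library, although 0.370 and 0.389 CPM nearly touch. Their exact 95% Poisson intervals, 0.123 to 0.882 and 0.215 to 0.660 CPM, overlapped. Among the genes that entered the test, 6.98% had no overlap between groups in either direction, 3.75% with Nanog+E-cadherin+ higher and 3.22% with it lower, and none of the 7 Wnt genes among them did. With no filter on low counts, edgeR gave Lgr5 a log2 fold change of -2.94 with group only (adjusted p = 0.996, unadjusted p = 0.0952) and -3.06 with the block (adjusted p = 0.670). Of its 3 higher libraries, replicates 2 and 3 were those with high olfactory receptor counts. In the pair numbered 1, where these receptors summed to 31.9 and 36.1 CPM, Lgr5 stood at 0.0611 against 0.389 CPM. The exact 95% Poisson intervals of that pair, 0.0014 to 0.306 and 0.215 to 0.660 CPM, also overlapped. The part of the receptor background in the Lgr5 level was not tested.

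None of the 7 genes that passed the filter changed between the populations in edgeR's test, by group only (against 0% of all genes tested) or with the block (against 0.305%). At an unadjusted p under 0.05 there were 0 of 7 by group only (2.67% of all genes) and 1 of 7, Tcf7l1, with the block (10.7%). DESeq2's Wald test with the block called 0 of the 7 (2.26% of all genes) and limma-voom with group only 0 of the 7 (0%). DESeq2 with group only gave 2 of the 7 an adjusted p and called neither (0.373% of the genes it gave one). Tcf7l1 and Axin2 were higher in Nanog+E-cadherin+ cells in all 3 pairs, as were 19.0% of all genes tested. The median log2 fold change of the 7 genes was 0.0007 by group only and 0.30 with the block, against -0.01 and 0.02 over all genes tested. These medians are the values of the low genes Lef1 (interval from -3.39 to 3.40) and Sp5 (interval from -3.74 to 4.33), so they describe no shared shift. With the block, the intervals of Tcf7l1, Tcf7l2, Tcf7, Axin2 and Nkd1 lay between 0.588-fold and 1.86-fold, while those of Lef1 and Sp5 reached 11.0-fold and 20.2-fold. By group only, those of Nkd1 (0.216-fold to 3.18-fold) and Axin2 (0.506-fold to 3.69-fold) were wider.

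**Figure D4:**
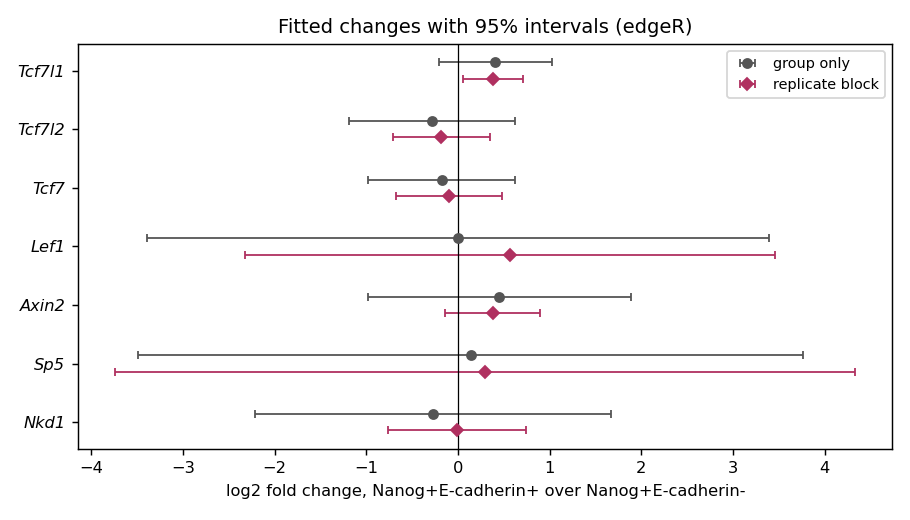
Fitted log2 fold change (x axis, Nanog+E-cadherin+ over Nanog+E-cadherin-) of the 7 genes tested, with 95% intervals, from edgeR with group only (grey circles) and with the replicate block (red diamonds). With group only all 7 intervals cross 0; with the block that of Tcf7l1 does not (0.05 to 0.71), but its adjusted p is 0.398.

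The other genes of the pathway were read from lists by role, 100 genes in the tables of which 76 were tested. None passed over all genes in edgeR's test with group only or with the block. At an unadjusted p under 0.05, 1 gene counted by group only, and 2 higher and 8 lower with the block, where all genes gave 5.51% higher and 5.19% lower. The median log2 fold change over the 76 was -0.02 by group only and 0.01 with the block. Named after their values were seen, 5 genes had no overlap between groups with Nanog+E-cadherin+ cells higher (Wnt8a, Notum, Dvl2, Btrc and Sp8, 3.75% of all genes tested). With them lower there was 1 (Wnt3, 3.22%). Sp8 stood at 0.990, 0.680 and 1.55 CPM in Nanog+E-cadherin+ and 0.281, 0 and 0 CPM in Nanog+E-cadherin- cells. Genes as low as Sp8 and Wnt8a can pass the filter through their higher group alone, so their lack of overlap is no support for a difference.

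Ligands were scarce. Of 19 Wnt genes 9 were tested, and with the block 7 were fitted higher and 2 lower. For this and the counts below, 51.9% of all genes tested were fitted higher with the block. The 3 of highest TPM were Wnt7a (8.15 ± 6.08 against 8.07 ± 8.26 TPM), Wnt5a (7.11 ± 4.40 against 5.88 ± 2.66 TPM) and Wnt9a (6.53 ± 5.67 against 5.04 ± 2.98 TPM; SD, n = 3 each, Nanog+E-cadherin+ named before Nanog+E-cadherin- here and below). Wnt8a, a ligand of the early embryo named after its values were seen, had no overlap between groups. It stood at 4.18, 1.89 and 1.50 CPM in Nanog+E-cadherin+ cells and at 0.984, 0 and 0 CPM in Nanog+E-cadherin- cells. The 0 values in Nanog+E-cadherin- replicates 2 and 3 allow levels of up to 0.259 and 0.315 CPM (3 counts). The adjusted p of Wnt8a was 0.370 with the block in edgeR's test. Among secretion genes and R-spondins, 3 were tested and all 3 were fitted higher with the block. The Wnt acyltransferase Porcn stood at 94.4 ± 47.7 against 107 ± 87.9 TPM. Its log2 fold change on counts went the other way, at 0.03 by group only and 0.14 with the block. The Wnt carrier Wls stood at 32.3 ± 22.6 against 28.3 ± 20.7 TPM and the R-spondin Rspo3 at 0.543 ± 0.189 against 0.407 ± 0.316 TPM.

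Of 16 receptors and their regulators 15 were tested, and with the block 5 were fitted higher and 10 lower, with a median of -0.23. The co-receptor Lrp5 stood at 40.8 ± 14.8 against 53.0 ± 16.4 TPM and the receptor Fzd2 at 43.1 ± 19.1 against 43.1 ± 18.7 TPM. Lgr4, the R-spondin receptor related to Lgr5, was far more abundant than Lgr5 in every library. It measured 90.4, 42.1 and 38.4 CPM in Nanog+E-cadherin+ cells and 159.9, 63.6 and 67.9 CPM in Nanog+E-cadherin- cells. The Nanog+E-cadherin+ library was the lower in each pair, with log2 ratios of -0.82, -0.59 and -0.82, and both libraries numbered 1 were the highest of their group. The blocked log2 fold change was -0.75 ± 0.16 (SE), with an adjusted p of 0.149 in edgeR's test and 0.0106 in DESeq2's Wald test with the block. Fzd8, named after its values were seen, was the 1 pathway gene under an unadjusted p of 0.05 by group only. It stood at 2.86, 7.78 and 9.0 CPM in Nanog+E-cadherin+ cells and 2.87, 1.38 and 1.99 CPM in Nanog+E-cadherin- cells, level in the pair numbered 1 and higher in Nanog+E-cadherin+ cells in the other pairs. Its log2 fold change was 1.64 ± 0.67 (SE) by group only and 1.55 ± 0.70 with the block, with an adjusted p of 0.482 with the block in edgeR's test. Fzd1 and Fzd3, also named after their values were seen, had the lower value in Nanog+E-cadherin+ cells in each pair, with adjusted p of 0.356 and 0.350 with the block in edgeR's test. Of all genes tested, 17.3% were lower in all 3 pairs, as Lgr4, Fzd1 and Fzd3 were.

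Of 15 secreted or surface inhibitors 10 were tested, 4 fitted higher and 6 lower with the block. Sfrp1, a decoy that binds Wnt proteins, stood at 143 ± 51.9 against 131 ± 52.2 TPM. Apcdd1, a membrane inhibitor, stood at 61.8 ± 26.7 against 76.3 ± 29.2 TPM, and the Dkk receptor Kremen1 at 22.9 ± 7.82 against 28.7 ± 11.6 TPM. Notum, a secreted enzyme that inactivates Wnt and is itself a target, was named after its values were seen because its groups did not overlap. It stood at 1.54, 2.57 and 3.55 CPM in Nanog+E-cadherin+ cells and at 0.698, 0.865 and 0.629 CPM in Nanog+E-cadherin- cells, with an adjusted p of 0.554 with the block in edgeR's test.

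All 17 cytoplasmic genes found were tested, with 6 fitted higher and 11 lower with the block and a median of -0.21. Ctnnb1, which encodes β-catenin, was the most abundant gene of these lists at 627 ± 218 against 740.2 ± 115 TPM, with a log2 fold change of -0.18 ± 0.28 (SE). The casein kinases Csnk1a1 (192 ± 56.1 against 209 ± 66.3 TPM) and Csnk1d (148 ± 43.0 against 155 ± 37.0 TPM) had log2 fold changes of -0.01 and 0.02. The sign for Csnk1d is opposite to that of its TPM means. Apc2, a neural relative of Apc named after its values were seen, was lower in Nanog+E-cadherin+ cells in each pair, as were 17.3% of all genes tested. Its blocked log2 fold change was -0.98 ± 0.28 (SE, adjusted p = 0.263 in edgeR's test). Neuron markers (8 genes) were also lower in Nanog+E-cadherin+ cells in each pair, with sums of 630, 282 and 169 TPM against 898, 545 and 302 TPM for numbers 1 to 3, and their part in the Apc2 values was not tested.

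Among 14 nuclear cofactors 7 were fitted higher and 7 lower with the block. The Tle-related Aes stood at 366 ± 78.0 against 346 ± 78.2 TPM, the co-repressor Ctbp1 at 211 ± 46.8 against 221 ± 35.8 TPM and the β-catenin antagonist Cby1 at 189 ± 6.22 against 204 ± 36.1 TPM. On counts, Ctbp1 had a log2 fold change of 0.02 by group only, opposite in sign to its TPM means. Of 8 further targets 5 were tested, with 4 fitted higher and 1 lower with the block. Ccnd1, a cyclin of G1 with many other inputs, stood at 174 ± 107 against 170.2 ± 90.2 TPM, the adhesion receptor Cd44 at 40.3 ± 11.2 against 45.1 ± 12.2 TPM and the receptor Tnfrsf19 at 4.44 ± 2.98 against 3.32 ± 1.55 TPM. Named after their values were seen, the mesoderm gene T and the caudal factors Cdx1 and Cdx2, which Wnt signalling induces in the primitive streak, were below the filter, with mean levels of 0.0817, 0.383 and 0.0117 TPM over the 6 libraries.

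Pluripotency genes held down by Tcf7l1 in embryonic stem cells did not pass either, and the 3 tested were all fitted higher with the block. Nanog, whose protein set the sort gate in both populations, stood at 158 ± 48.7 against 149 ± 19.8 TPM. Klf2 stood at 11.3 ± 8.19 against 8.74 ± 4.15 TPM and was highest in both libraries numbered 1. Esrrb, below the filter, had 2.29, 0.11 and 0.28 TPM in Nanog+E-cadherin+ cells and 0.16, 0 and 1.63 TPM in Nanog+E-cadherin- cells.

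**Figure D5:**
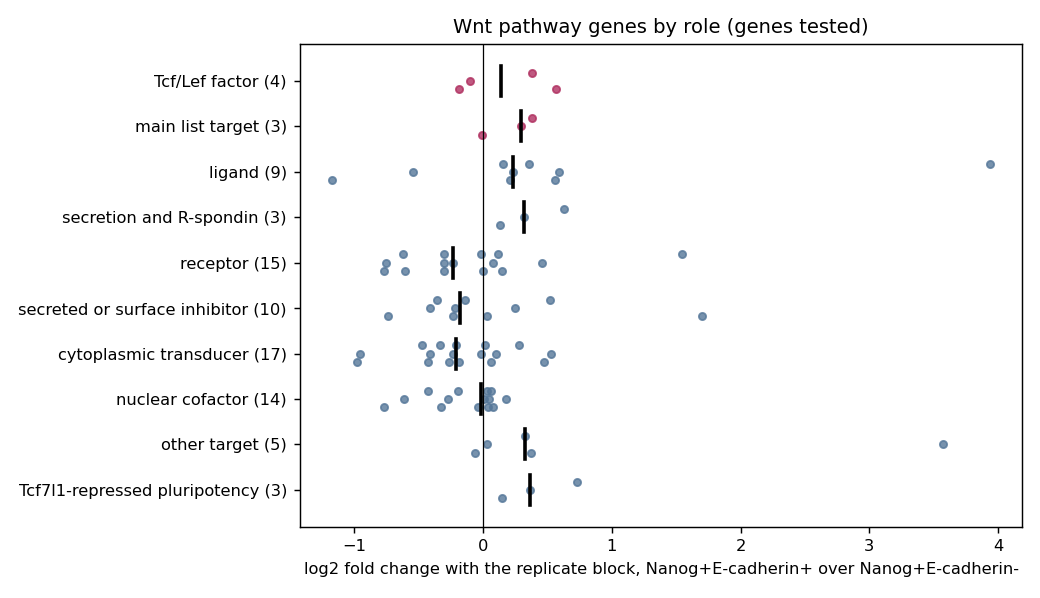
Log2 fold change with the replicate block (x axis, Nanog+E-cadherin+ over Nanog+E-cadherin-) of each Wnt pathway gene tested, by role (rows, number of genes in brackets), with black bars at medians and the 7 genes of the main list in red. Points lie on both sides of 0 in most rows, the points furthest right are the low genes Wnt8a and Sp8, and none passed over all genes in edgeR's test.

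Genes of most similar pattern were taken from the 9731 or 9732 others with a mean of at least 5 TPM, by Pearson correlation of log2 CPM over the 6 libraries. Tcf7l1 was closest to Me1, Abcc4 and Cpne2 (r = 0.99 each), and Tcf7l2 to Tmem175 (r = 0.999), Nptx1 and Dscr3 (r = 0.99 each). Tcf7 was closest to Zc3h7a (r = 0.999), Pan3 (r = 0.998) and Ift81 (r = 0.994). Axin2 was closest to Wipf1, Kctd11 (r = 0.99 each) and Rnf168 (r = 0.98), and Nkd1 to Stk25, H2afy2 and Rab3d (r = 0.99 each). The low genes Lef1 (Dpy19l1, Ing1 and Agk) and Sp5 (Pycard and Xrcc6) had matches at r between 0.981 and 0.996. The points share libraries and, in pairs, a replicate number. With 6 of them, between 14 and 146 genes per Wnt gene exceeded r = 0.95, so these names describe the libraries and are not tests.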

How the data were processed

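Sample titles gave the group and the replicate number. Bowtie, RSEM 1.2.4 and the build mm9 are named in the submitters' processing notes; strand use was not stated in the sources used here. Per the file headers, each deposited table holds expected counts, TPM and FPKM per gene, with transcript lengths. The authors' expected counts were rounded for count tests, the authors' TPM values set genes side by side, and the deposited FPKM values entered only an alternative for the family shares. RSEM divides reads among related genes, so values of Tcf/Lef relatives are estimates.

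All 6 libraries were fitted in edgeR 4.0.16 (R 4.3.3) with TMM, filterByExpr (minimum count 10, total 15), quasi-likelihood tests with group as the only term and Benjamini-Hochberg adjustment over 13460 genes, at a threshold of 0.05. Alternatives used the replicate number as a block, DESeq2 1.42.0, limma 3.58.1 and other filters, scalings and subsets. Deviations from group means correlated at 0.75, 0.41 and 0.48 between equal-numbered libraries and between -0.62 and 0.12 otherwise, so the numbers were taken as pairs. This comes from the values, not the labels. Deviations from a mean of 3 libraries sum to 0, so high values for equal numbers push the other values down. The low values between unequal numbers are therefore no separate support for the pairs. Ratios within pairs use CPM + 0.5. Steps were tested on simulated data. The genes and lists were chosen with earlier results of these data known. All 8 Wnt genes are described; of each role list the text names the 3 genes of highest mean TPM and any that passed, and others are said to be named after their values were seen. For each tested Wnt gene, the 3 best-correlated genes were named, passing over clone-named and predicted genes; 1 of these best-correlated genes is not reported here. Tfcp2l1 was not analysed here. Promoter windows are RefSeq's for GRCm38.p6; gene coordinates are not given, since that build is not the files'.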

Additional observations from a re-analysis of the deposited data

How the results depend on the processing

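No gene of the main list passed in a fit that gave it an adjusted p. Of 22 fits, Sp5 had a value in 20 and Lgr5 in 7, and DESeq2 with group only gave no adjusted p for 5 of the 7 it tested; Tcf7l1 kept its direction in all 22. With the replicate block the count over all genes was 41, with none of the 7 tested; it was 149, 140 and 449 when both samples numbered 1, 2 or 3 were left out and 352 with no filter. DESeq2's Wald test called 21 genes with group only, where 7834 had no adjusted p, and 304 with the block; edgeR by group only called 1 with no filter. Of the pathway lists, 1 gene (Lgr4) passed in DESeq2 with the block, and 2 (Lgr4 and Apc2) with the block without both samples numbered 3 and with the block and no filter. Log2 fold changes that changed sign were Lef1 (-0.0734) and Sp5 (-0.0235) with library totals, Sp5 with limma-voom (-0.0906), log2(TPM + 1) (-0.0849) and log2(TPM + 0.1) (-0.00589), and Nkd1 in DESeq2 with the block (0.0137) and with the block and no filter (0.00789). In blocked fits, Nkd1 was 0.13 without both samples numbered 1 and 0.29 without those numbered 2, and without those numbered 3 Tcf7l2 was 0.0508, Tcf7 0.21, Lef1 -0.21 and Sp5 -0.56. Without Nanog+E-cadherin- replicates 2 and 3, Tcf7 was 0.18 and Lef1 -0.21, with 1 library left in that group and its spread assumed to be that of the other. Leaving out 1 library at a time by group only, values ran from -0.13 to 0.97 for Axin2, -0.68 to 0.70 for Lef1, -0.77 to 0.33 for Nkd1, -0.40 to 1.07 for Sp5, -0.37 to 0.25 for Tcf7 and -0.59 to 0.13 for Tcf7l2. The cause of these shifts was not tested. Sp5 fell below the filter without Nanog+E-cadherin+ replicate 1 and without both samples numbered 1. Lef1, Sp5 and Lgr5 had at most 49 counts in a library, and for Lef1 and Sp5 libraries of 1 group also differed beyond counting error.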
